A study of Mus musculus with 16 samples.

Results

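The 10 genes described here are those of the IL-23 and type 17 axis. They comprise the type 17 cytokine genes Il17a, Il17f and Il22, the epithelial cytokine gene Il17c, the IL-23 subunit genes Il23a and Il12b, the IL-23 receptor genes Il23r and Il12rb1, and the chemokine receptor and ligand genes Ccr6 and Ccl20. They were chosen by gene symbol, and all 10 were found among the 26357 genes of the count table. RNA was sequenced from 16 mouse libraries in 4 groups of 4. Mice had received IL-23 or vehicle as the agent, and all 16 also carried a drug vehicle holding 0 mpk of compound, given per os (oral below) or intraperitoneally. The 4 groups were therefore vehicle oral, IL-23 oral, vehicle intraperitoneal and IL-23 intraperitoneal. The title of the series concerns a psoriasiform dermatitis mediated by IL-23. The sources used here give no tissue, strain, sex or age, and no dose, site or timing of IL-23. Libraries are named by the number that opens their label, and nothing in the labels says that each came from a separate mouse, so p-values measure only the spread between these samples, which may be technical.

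IL-23 is a secreted dimer of a p19 subunit, encoded by Il23a, and a p40 subunit, encoded by Il12b and shared with IL-12. It binds a receptor of IL-23R and IL-12Rβ1 on lymphocytes, signals through JAK2, TYK2 and STAT3, and sustains cells that secrete IL-17A, IL-17F and IL-22. In skin these cells are largely γδ T cells, conventional type 17 T cells and innate lymphoid cells, and their cytokines act on keratinocytes. Keratinocytes in turn make the chemokine CCL20, the ligand of CCR6 on type 17 cells, and the IL-17 family cytokine IL-17C.

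Total counts per library ran from 6381990 to 14432930. Keratinocyte markers were abundant in every library, with 12 markers summing to between 22800 and 31400 CPM (counts scaled by library size and TMM factors) in vehicle libraries and between 41600 and 79000 CPM in IL-23 libraries. Of these 12, 7 rose and 1 fell in the oral and 8 rose and 1 fell in the intraperitoneal route. The share called higher was 29.2% and 30.8% among all genes past a count filter. Krt1 (1040 to 9660 CPM), Krt16 (160 to 5950) and Krt6a (238 to 2510) rose in the oral route, whereas Krt15 fell (2510 to 539). The sum thus mixes opposite changes. All 10 skeletal muscle and all 6 adipocyte markers fell in both routes, and their part in the values below was not tested. Library 28, in the IL-23 intraperitoneal group, stood apart. Its 17 interferon response genes summed to 1850 CPM against 227 to 364 CPM in the 7 remaining libraries given IL-23. The 15 T cell markers summed to 372 there against 222 to 283 CPM, and the 11 monocyte and macrophage markers to 1740 against 352 to 711 CPM. Results that rest on this library are given with and without it. The RNA comes from bulk samples, in which more cells of a type and more RNA per cell cannot be told apart.

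Sequence upstream of the annotated transcript start was available from RefSeq (GRCm38.p6) for 8 of the 10 genes, and was searched on both strands, in the 250 bases before the start, for 4 motifs. AGGTCA, a core element bound by several nuclear receptors, was present in 5 genes (Il17a, Il17f, Il23r, Ccr6 and Ccl20), against 14.0% of the 32851 windows of the same length in the table. The NF-kB element was found as GGAAAACCCC in Ccl20 and as GGGTTTTTCC in Il23r (the form searched is in 1.41% of all windows), TTCNNNGAA, the palindrome bound by STAT factors, in Ccr6 (7.02%), and TGANTCA, the AP-1 element, in Il17a (6.75%). No matches of different motifs overlapped. A match is a description of the sequence and not a binding site. The 5 windows with AGGTCA are shown because this motif was found in the most genes of the 4 searched, each 5′ to 3′ on the gene's own strand, with all motif matches in capitals and in either orientation. They are chr1:20730655-20730904 (plus strand) for Il17a, chr1:20784271-20784520 (minus) for Il17f, chr6:67491856-67492105 (minus) for Il23r, chr17:8235793-8236042 (plus, the first of its annotated starts) for Ccr6 and chr1:83116516-83116765 (plus) for Ccl20.
Il17a: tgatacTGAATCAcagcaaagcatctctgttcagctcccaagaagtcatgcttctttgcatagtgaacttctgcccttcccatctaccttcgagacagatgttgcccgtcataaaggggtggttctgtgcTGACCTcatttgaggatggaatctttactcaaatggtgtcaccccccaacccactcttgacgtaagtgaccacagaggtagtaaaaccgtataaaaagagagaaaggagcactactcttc
Il17f: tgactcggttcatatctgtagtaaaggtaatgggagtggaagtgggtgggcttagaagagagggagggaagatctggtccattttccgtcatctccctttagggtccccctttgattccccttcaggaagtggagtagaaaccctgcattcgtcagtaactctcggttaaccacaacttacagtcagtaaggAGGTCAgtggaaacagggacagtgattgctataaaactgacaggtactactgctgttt
Il23r: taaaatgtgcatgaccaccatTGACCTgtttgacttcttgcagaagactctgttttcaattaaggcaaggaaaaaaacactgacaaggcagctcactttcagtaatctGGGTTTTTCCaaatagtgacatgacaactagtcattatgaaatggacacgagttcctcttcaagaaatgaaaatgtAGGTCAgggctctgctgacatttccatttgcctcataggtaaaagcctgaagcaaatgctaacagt
Ccr6: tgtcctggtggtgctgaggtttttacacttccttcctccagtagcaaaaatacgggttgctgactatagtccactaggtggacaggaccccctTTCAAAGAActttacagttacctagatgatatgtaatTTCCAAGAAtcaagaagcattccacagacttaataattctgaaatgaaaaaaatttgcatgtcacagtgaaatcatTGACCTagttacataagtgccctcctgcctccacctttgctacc
Ccl20: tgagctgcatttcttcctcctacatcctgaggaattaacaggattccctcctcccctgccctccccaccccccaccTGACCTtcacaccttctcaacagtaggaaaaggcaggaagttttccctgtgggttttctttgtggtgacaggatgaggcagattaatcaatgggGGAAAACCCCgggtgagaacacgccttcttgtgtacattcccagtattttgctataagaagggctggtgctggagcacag
The AGGTCA match lay 120 to 115 bases before the start in Il17a, 58 to 53 bases before it in Il17f, whose start used here (20784270) lies inside the outer bound of the gene, and 44 to 39 bases before it in Ccr6. Ccl20 had its match 174 to 169 bases before the start, and its NF-kB match 80 to 71 bases before it. Il23r carried AGGTCA at 66 to 61 bases and again, on the opposite strand, at 229 to 224 bases. The windows of Il22, Il17c and Il12b held none of the 4 motifs as spelled here, and Il23a and Il12rb1 were not searched. The Il22 start used here (118204964) also lies inside the outer bound of the gene. Its whole window does so too, so the bases before the outer bound were not searched.

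Of the 10 genes, 5 passed the count filter (Il17f, Il22, Il17c, Il23a and Ccl20), and the other 5 were tested in a fit of all 20799 genes with a count. In the oral route 7 of the 10 rose and 0 fell. IL-23 changed a large part of the transcriptome, so the background is high. Of genes past the filter 29.2% were called higher and 34.0% lower in that comparison, and of all genes with a count 21.5% and 23%. In the intraperitoneal route 9 of the 10 rose and 0 fell, and 8 rose without library 28. The background there was 30.8% higher and 30.9% lower past the filter, and 22.6% and 21.5% of all genes with a count. The median log2 fold change of the 10 genes in the fit of all genes was 4.05 (oral) and 3.31 (intraperitoneal), against -0.04 and -0.01 over all 20799 genes. In CPM the IL-23 libraries lay wholly above the vehicle libraries for 6 genes in the oral and 7 genes in the intraperitoneal route, against 20.3% and 18.3% of all genes with a count. For 0 of the 10 they lay wholly below, against 23.8% and 19.6%. Il17a held 0 counts in every vehicle library, and Il22 and Il12b at most 1 in any, so these could hardly have fallen. Il17f, Il22, Il17c and Il23a passed the count filter through their IL-23 libraries. That 0 fell or lay below is therefore not separate evidence of a direction. Groups without overlap always give an exact 2-sided permutation p = 0.0286, the smallest that 4 against 4 libraries can give.

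The type 17 cytokine genes went from at or near 0 counts to clear detection. Il17f (ID 257630, chromosome 1, 20777146 to 20785274) encodes a cytokine that pairs with itself or with IL-17A. In the oral route its counts were 1, 0, 0 and 0 in vehicle libraries 4, 27, 33 and 51, and 43, 91, 44 and 59 in IL-23 libraries 14, 24, 26 and 68. Every IL-23 library held at least 43 counts and no vehicle library more than 1. Mean levels with vehicle and with IL-23 were 0.0199 ± 0.0397 and 7.47 ± 2.42 CPM (SD, n = 4 each). The log2 fold change was 7.74 ± 0.66 (SE, edgeR quasi-likelihood test, adjusted p = 7.13e-08). Without vehicle oral library 4, which held the 1 count, the gene was at least 82.5-fold higher, taking 3 counts over the whole vehicle group as the floor for this and the other lower bounds. In the intraperitoneal route counts were 4, 0, 2 and 1 in vehicle libraries 49, 50, 59 and 67, and 35, 144, 63 and 44 in IL-23 libraries 25, 28, 31 and 61. The groups again did not overlap, and library 28 was the highest. The log2 fold change was 5.83 ± 0.51 (edgeR adjusted p = 1.13e-07), and the summed counts differed 63.4-fold (95% exact binomial interval 30.4 to 159), or 44.7-fold without library 28. These intervals cover counting error only.

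Il22 (ID 50929, chromosome 10, 118204584 to 118210047) encodes IL-22, which acts on epithelial cells and not on lymphocytes. It had 0 counts in all 4 oral vehicle libraries and 37, 81, 74 and 47 in oral IL-23 libraries 14, 24, 26 and 68. Oral Il22 was thus at least 115-fold higher (edgeR adjusted p = 4.47e-07). In the intraperitoneal route vehicle library 67 held the only vehicle count, and IL-23 libraries 25, 28, 31 and 61 held 28, 128, 72 and 33. The ratio of summed counts was 405 (72.1 to 16100, edgeR adjusted p = 5.82e-07), and without vehicle library 67 the gene was at least 105-fold higher. Means in the IL-23 groups were 7.55 ± 2.38 CPM (oral) and 8.32 ± 4.61 CPM (intraperitoneal), close to those of Il17f in CPM. A near copy of Il22, Iltifb, had 0 counts in the vehicle groups and 15 and 10 in the oral and intraperitoneal IL-23 groups, and reads may be divided between the copies.

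Il17a (ID 16171, chromosome 1, 20730905 to 20734496), the signature type 17 cytokine and the neighbour of Il17f, was far less abundant. All 8 vehicle libraries held 0 counts. The oral IL-23 libraries 14, 24, 26 and 68 held 0, 6, 3 and 5 counts, so 1 of them overlapped with vehicle, and the gene was at least 6.73-fold higher (edgeR adjusted p = 0.0168). The intraperitoneal IL-23 libraries 25, 28, 31 and 61 held 3, 37, 5 and 5 counts, at least 25.9-fold higher (edgeR adjusted p = 0.000609). Without library 28 the bound was 9.56-fold (edgeR adjusted p = 0.00111), from 13 counts in 3 libraries. In the IL-23 libraries other than library 28, Il17a counts lay between 0 and 6 and Il17f counts between 35 and 91.

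**Figure D1:**
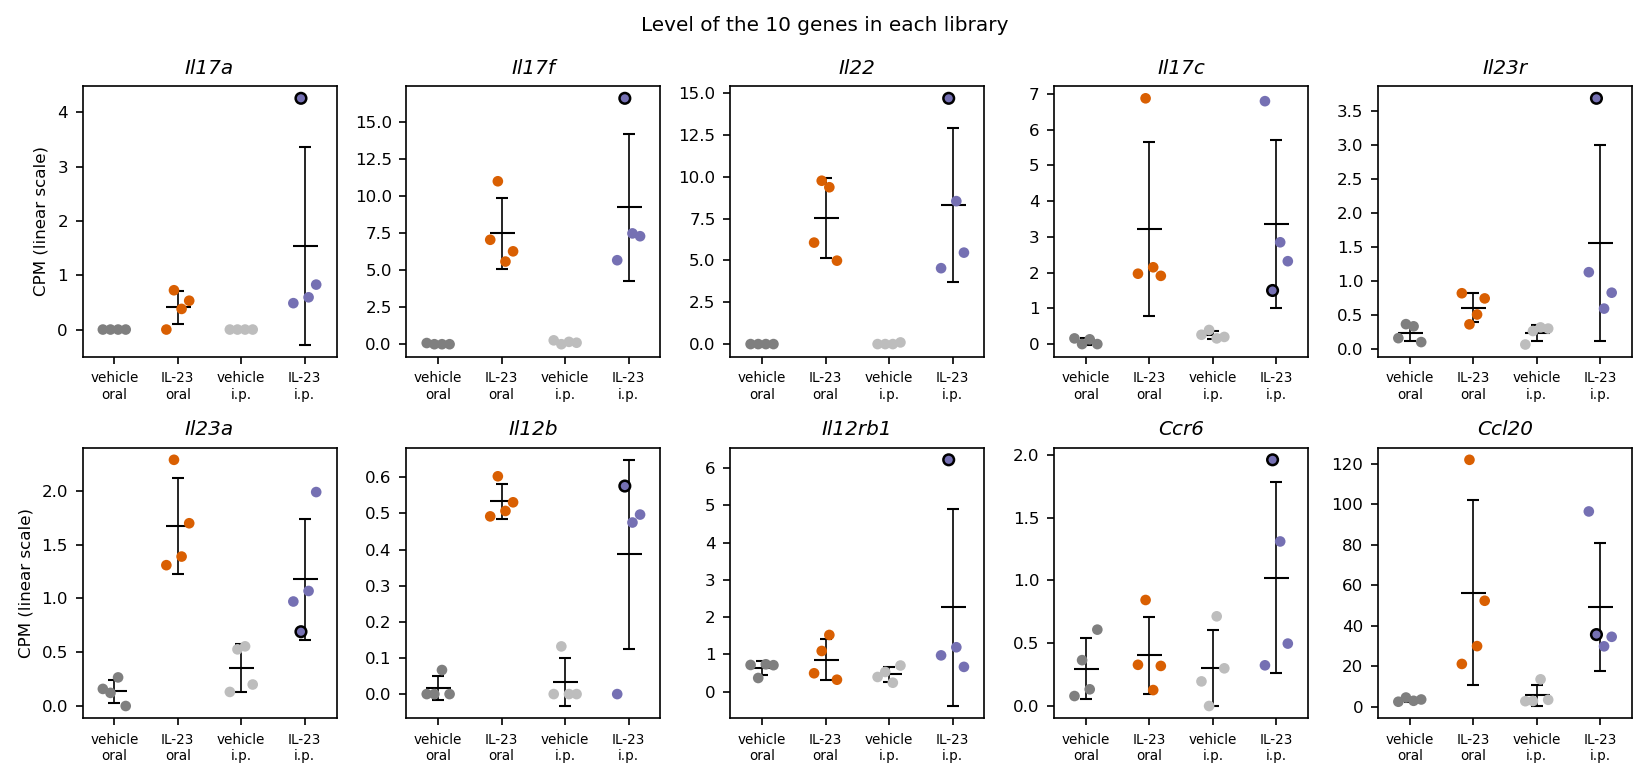
Level of the 10 genes in each of the 16 libraries, in CPM on a linear axis that differs between panels. Points are libraries, horizontal lines are group means and bars are the SD (n = 4 each), and the point outlined in black is IL-23 intraperitoneal library 28, which is the highest point of Il17a, Il17f, Il22, Il23r, Il12rb1 and Ccr6.

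Il17c (ID 234836, chromosome 8, 122422020 to 122423639) encodes an IL-17 family member made by epithelial cells. It overlaps 1 other annotated gene, Gm20388, on the same strand, so reads may be shared. Oral counts were 2, 0, 2 and 0 in vehicle libraries 4, 27, 33 and 51, and 12, 57, 17 and 18 in IL-23 libraries 14, 24, 26 and 68. All IL-23 libraries lay above vehicle, and library 24 stood well above the other 3. Mean levels were 0.073 ± 0.085 and 3.23 ± 2.43 CPM (SD, n = 4 each), and Il17c rose by 5.04 ± 0.75 in log2 (edgeR adjusted p = 2.01e-05), or by 4.35 without library 24. Intraperitoneal counts were 4, 3, 2 and 2 in vehicle libraries 49, 50, 59 and 67, and 42, 13, 24 and 14 in IL-23 libraries 25, 28, 31 and 61. The log2 fold change there was 3.69 ± 0.64 (edgeR adjusted p = 0.000111). Library 28, the highest for Il17a, Il17f and Il22, was the lowest of the 8 IL-23 libraries for Il17c, at 1.5 CPM against 1.91 to 6.88 CPM.

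The genes of the IL-23 subunits were themselves higher in mice given IL-23. Il23a (ID 83430, chromosome 10, 128296140 to 128298084), the p19 subunit, had 2, 1, 4 and 0 counts in oral vehicle libraries 4, 27, 33 and 51 and 8, 19, 11 and 16 in oral IL-23 libraries 14, 24, 26 and 68. The groups did not overlap. Mean levels were 0.137 ± 0.11 and 1.67 ± 0.444 CPM (SD, n = 4 each), and the rise in log2 was 3.38 ± 0.54 (edgeR adjusted p = 4.43e-05). In the intraperitoneal route it had 2, 4, 7 and 2 counts in vehicle libraries 49, 50, 59 and 67 and 6, 6, 9 and 12 in IL-23 libraries 25, 28, 31 and 61. Raw counts overlapped there but the CPM did not (0.131 to 0.555 against 0.691 to 1.99), and the log2 fold change was 1.74 ± 0.51 (edgeR adjusted p = 0.00736). Il12b (ID 16160, chromosome 11, 44400063 to 44414677), the p40 subunit, had 1 count among the oral vehicle libraries, in library 33, and 3, 5, 4 and 5 in oral IL-23 libraries 14, 24, 26 and 68. That is a ratio of 24.5 (3.84 to 1020.0, edgeR adjusted p = 0.00133), and without vehicle library 33 at least 5.49-fold. The intraperitoneal groups held 1 count, in vehicle library 50, against 0, 5, 4 and 3 in IL-23 libraries 25, 28, 31 and 61. The ratio was 18.6 (2.76 to 796, edgeR adjusted p = 0.00546), and without vehicle library 50 at least 5.17-fold. Il12a, which encodes the p35 subunit that turns p40 into IL-12, did not pass the test in either route, with 6 against 12 counts in the oral and 8 against 12 in the intraperitoneal groups (edgeR adjusted p = 0.123 and 0.192). Both subunits are typically made by dendritic cells and macrophages, and markers of these cells moved as well. Of genes past the filter 29.2% (oral) and 30.8% (intraperitoneal) were called higher. Of 12 dendritic and Langerhans cell markers, 7 rose in the oral and 6 in the intraperitoneal route (4 without library 28, vehicle library 49 or vehicle library 67). They summed to 381 to 519 CPM in vehicle and 646 to 974 CPM in IL-23 libraries by the oral route, and to 432 to 613 and 705 to 1090 CPM by the intraperitoneal route. Flt3, of the same list, went the other way without passing (log2 fold change -0.66 ± 0.29 and -0.62 ± 0.29, edgeR adjusted p = 0.0577 and 0.0724). Of 11 monocyte and macrophage markers, 5 and 7 rose, with sums of 234 to 445 and 375 to 711 CPM (oral) and of 347 to 443 and 352 to 1740 CPM (intraperitoneal). The part of these cells in the subunit values was not tested.

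Neither receptor gene passed the test in the oral route, and library 28 carried a large part of the intraperitoneal values of both. Il23r (ID 209590, chromosome 6, 67422932 to 67491855), the subunit that binds p19, had 2, 3, 5 and 1 counts in oral vehicle libraries 4, 27, 33 and 51 and 5, 3, 4 and 7 in oral IL-23 libraries 14, 24, 26 and 68. These groups overlapped, and the log2 fold change of 1.31 ± 0.68 did not pass (edgeR adjusted p = 0.132, n = 4 each). Intraperitoneal vehicle libraries 49, 50, 59 and 67 had 1, 2, 4 and 3 counts, and IL-23 libraries 25, 28, 31 and 61 had 7, 32, 5 and 5. The groups did not overlap, and Il23r rose by 2.79 ± 0.62 on the log2 scale (edgeR adjusted p = 0.000916), or by 1.86 without library 28 (edgeR adjusted p = 0.0174). Il12rb1 (ID 16161, chromosome 8, 70808360 to 70823542), the subunit that binds p40, was detected in every library. Its oral counts were 9, 3, 11 and 7 in vehicle and 3, 9, 12 and 3 in IL-23 libraries, in the library order just given, with a log2 fold change of 0.42 ± 0.67 (edgeR adjusted p = 0.648). Its intraperitoneal counts were 6, 4, 3 and 7 in vehicle and 6, 54, 10 and 4 in IL-23 libraries. The log2 fold change of 2.39 ± 0.63 passed the test (edgeR adjusted p = 0.00399) although the groups overlapped, and without library 28 it was 1.1 and did not pass (edgeR adjusted p = 0.123).

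The ligand and the receptor of the CCR6 axis differed in level and in response. Ccl20 (ID 20297, chromosome 1, 83116766 to 83119167) was the most abundant of the 10 genes in every group. It had 32, 38, 45 and 36 counts in oral vehicle libraries 4, 27, 33 and 51 and 129, 1012, 237 and 493 in oral IL-23 libraries 14, 24, 26 and 68. Mean levels were 3.45 ± 0.903 and 56.4 ± 45.7 CPM (SD, n = 4 each), and Ccl20 rose by 4.07 ± 0.63 in log2 (edgeR adjusted p = 3.06e-05), or by 3.37 without library 24, the highest of the 4. Intraperitoneal counts were 43, 22, 172 and 35 in vehicle libraries 49, 50, 59 and 67 and 596, 310, 252 and 209 in IL-23 libraries 25, 28, 31 and 61. Vehicle library 59 stood at 13.6 CPM against 2.81 to 3.5 CPM in the other 3 but below every IL-23 library. The log2 fold change was 3.05 ± 0.59 (edgeR adjusted p = 0.000281), and 3.99 without vehicle library 59. In library 59 the 12 keratinocyte markers summed to 28300 CPM and the 15 T cell markers to 209 CPM, within the ranges of the 7 other vehicle libraries (22800 to 31400 and 152 to 210.0 CPM), and its 10 skeletal muscle markers summed to 3210 CPM against 3410 to 7100 CPM. The part of these in its Ccl20 level was not tested.

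Ccr6 (ID 12458, chromosome 17, 8236041 to 8258519), a receptor of type 17 cells, B cells and some dendritic cells, had 1, 3, 2 and 6 counts in oral vehicle and 2, 7, 1 and 3 in oral IL-23 libraries, in the same library order. The log2 fold change was 0.59 ± 0.82 (edgeR adjusted p = 0.595, n = 4 each). Intraperitoneal counts were 3, 0, 9 and 3 in vehicle libraries 49, 50, 59 and 67 and 2, 17, 11 and 3 in IL-23 libraries 25, 28, 31 and 61. The groups overlapped in both routes, and the intraperitoneal log2 fold change of 1.71 ± 0.70 did not pass (edgeR adjusted p = 0.0532). It was called without vehicle intraperitoneal library 59 (2.52, edgeR adjusted p = 0.0167), without IL-23 intraperitoneal library 25 or 61 (1.96 and 1.9, edgeR adjusted p = 0.0298 and 0.0419), without vehicle oral library 51 (1.71, edgeR adjusted p = 0.0492) and with limma-voom (1.88, adjusted p = 0.0427). At these counts a change of Ccr6 was not resolved. B cell markers were scarce: the 7 genes summed to between 0.397 and 2.59 CPM per library, and Pax5 had no count in any.

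**Figure D2:**
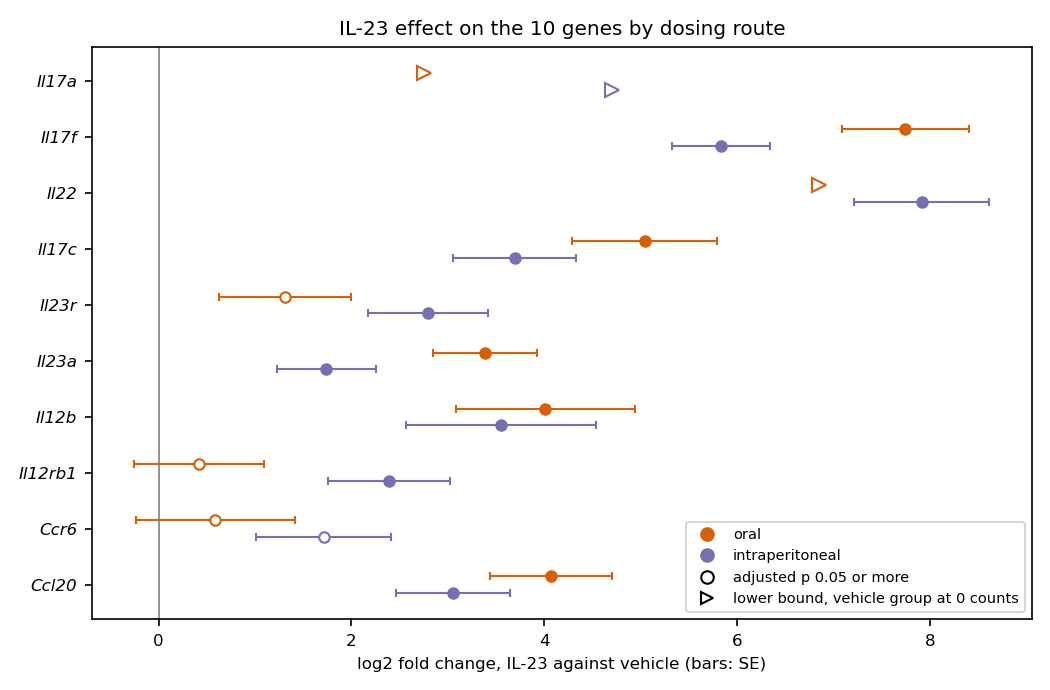
Log2 fold change of IL-23 against vehicle within each dosing route (points, bars are the SE) from the edgeR fit of all 16 libraries. Open circles did not pass an adjusted p of 0.05, and open triangles are lower bounds where the vehicle group held 0 counts. All 10 genes lie to the right of 0 in both routes, and Il12rb1 and Ccr6 lie nearest to it in the oral route.

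Whether the response to IL-23 depended on the route was tested as the intraperitoneal minus the oral log2 fold change. It was called for 0 of the 10 genes by edgeR, and likewise by DESeq2 and limma-voom, against 0% of all genes. At an unadjusted edgeR p under 0.05 the count was 1, Il12rb1, with a log2 difference of 1.97 (95% interval 0.03 to 3.9, edgeR adjusted p = 0.914), and it is the gene whose intraperitoneal call rests on library 28. For Il23a the difference was -1.64 (-3.31 to 0.03), for Il17f -1.91 (-4.45 to 0.63) and for Ccl20 -1.02 (-2.82 to 0.79). The widths show that differences of several fold between routes could not be resolved with 4 libraries a group.

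Levels of different genes were compared per kilobase of merged exon (GENCODE M21, GRCm38) as CPM divided by exon length in kilobases (RPKM). In the oral IL-23 group the order was Ccl20 (39.7 ± 32.2 RPKM, SD, n = 4), Il22 (6.8 ± 2.15), Il17c (4.49 ± 3.39), Il17f (3.69 ± 1.19), Il23a (0.745 ± 0.198), Il17a (0.349 ± 0.262), Il12b (0.271 ± 0.0251), Il23r (0.244 ± 0.085), Il12rb1 (0.208 ± 0.135) and Ccr6 (0.174 ± 0.133). Ccl20 lay above Il22 without overlap between libraries, and Il17f above Il23a, whereas all other neighbours in the order overlapped. The intraperitoneal IL-23 group had the same first 4 genes in the same order. With library 28 left out, Il23a (0.598 ± 0.25 RPKM, n = 3) followed at rank 5 and Il17a (0.543 ± 0.149) at rank 6, as in the oral group. With library 28 included, Il17a held rank 5 at 1.32 ± 1.55 RPKM (n = 4). In the oral vehicle group Ccl20 (2.43 ± 0.636 RPKM) was followed by Il12rb1 (0.154 ± 0.0432), and in the intraperitoneal vehicle group (4.02 ± 3.73) by Il17c (0.353 ± 0.144), both without overlap. Below these the vehicle levels overlapped from neighbour to neighbour.

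**Figure D3:**
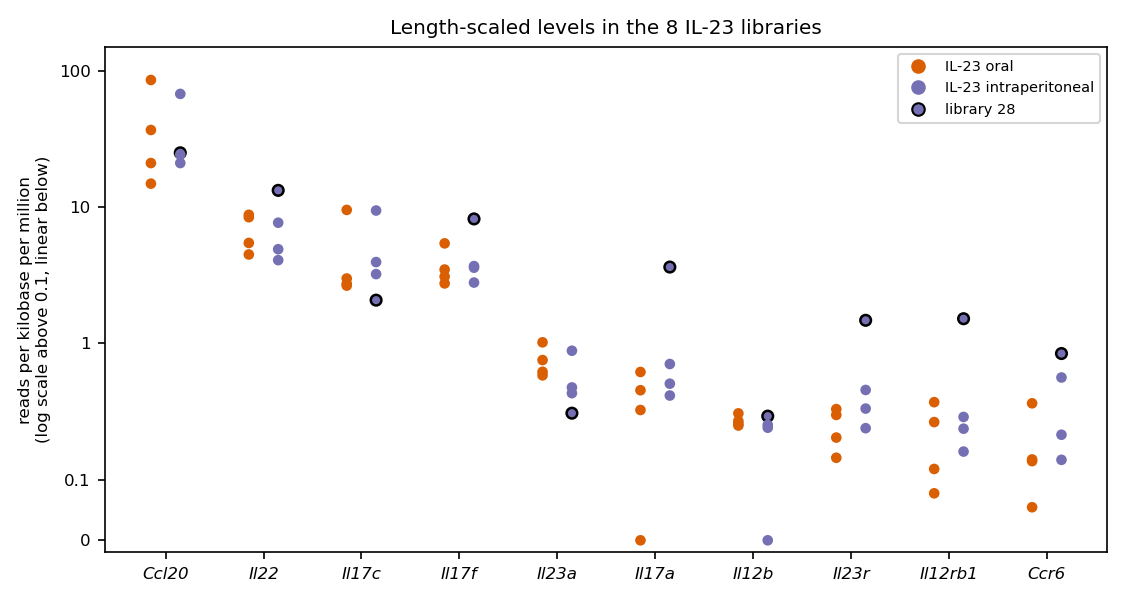
Length-scaled level of each gene in the 8 IL-23 libraries (points, 4 per route), ordered by the mean of the oral group; the vertical axis is logarithmic above 0.1 RPKM and linear below. Ccl20 lies above the rest, and Il22, Il17c and Il17f lie in a middle band. Library 28 (outlined) is the highest point of Il17a, Il17f, Il22, Il23r, Il12rb1 and Ccr6, and the lowest of Il17c and Il23a.

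Library 28 held 14.2% of the scaled depth of the IL-23 libraries but 57.8% of the Il17a counts, 53.5% of the Il12rb1 counts, 47.1% of the Il23r counts and 37% of the Ccr6 counts. Its shares of Il17f and Il22 were 27.5% and 25.6%. Il12b stood near its depth share at 17.2%. By contrast it held only 9.57% of Ccl20, 6.9% of Il23a and 6.6% of Il17c. The 4 genes furthest above the depth share are thus Il17a, Il12rb1, Il23r and Ccr6, and those furthest below it are Il17c and Il23a. T cell markers and interferon response genes were also higher in library 28, as given above, and keratinocyte markers were lower (41600 CPM against 53200 to 79000 CPM). Their part in these values was not tested.

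**Figure D4:**
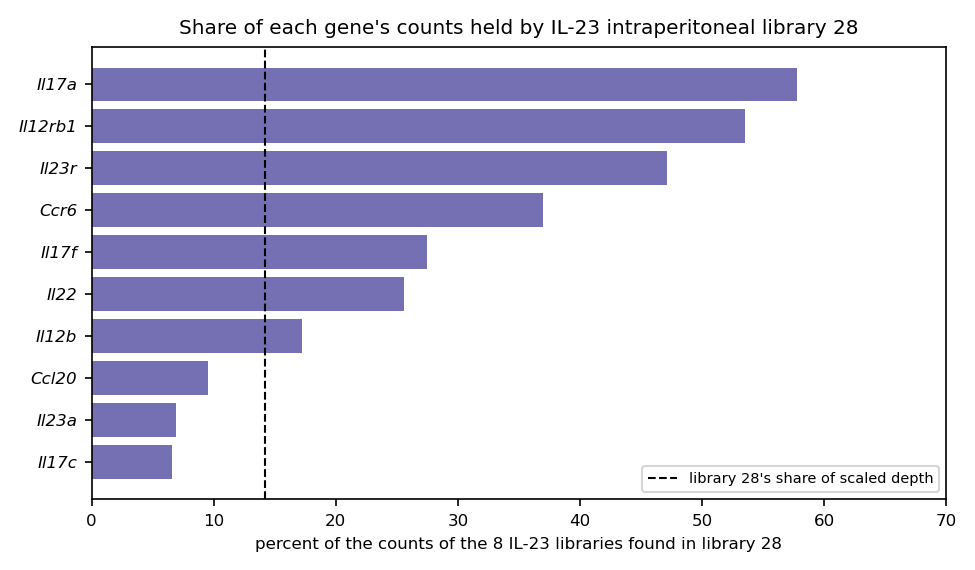
Percent of the counts of the 8 IL-23 libraries that lay in library 28, for each gene (bars). The dashed line is the share of scaled depth that this library contributed, 14.2%, and bars run from 6.6% for Il17c to 57.8% for Il17a.

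Type 17 cytokine counts were also set against the RNA of the T cell receptor complex in the same library, as the summed counts of Cd3e, Cd3d and Cd3g, which encode its signalling chains. These summed to 8.04 ± 1.54 CPM in oral vehicle and 9.76 ± 2.73 CPM in oral IL-23 libraries, and to 8.07 ± 1.24 and 16.9 ± 10.5 CPM in the intraperitoneal groups (SD, n = 4 each), the last being 11.8 ± 2.59 CPM without library 28. Per 100 such counts, Il17f had 0 to 1.23 counts in oral vehicle libraries and 52.4 to 119 in oral IL-23 libraries, and 0 to 3.25 and 42.2 to 83 in the intraperitoneal groups. For Il22 the ranges were 0 and 49 to 103 in the oral route, and 0 to 1.56 and 33.7 to 65.5 in the intraperitoneal route. Library 28 had 51.2 Il17f and 45.6 Il22 counts per 100, inside the range of the other IL-23 libraries. The mean log2 ratio, with 0.5 added to each count, was higher with IL-23 by 6.69 (Il17f, oral), 4.88 (Il17f, intraperitoneal), 7.1 (Il22, oral) and 6.08 (Il22, intraperitoneal). These sizes depend on the added count, since most vehicle counts were 0, and with 1 added they were 5.85, 4.44, 6.11 and 5.24. Each had an exact 2-sided permutation p = 0.0286 with n = 4 per group, the smallest possible, also after adjustment over the 4 tests. The counts of both genes already separated the groups without overlap, and Cd3 counts differed far less between libraries. This p therefore followed from that separation and is not separate evidence. The ratio does not say which cells carried the cytokine RNA, since innate lymphoid cells lack the complex.

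**Figure D5:**
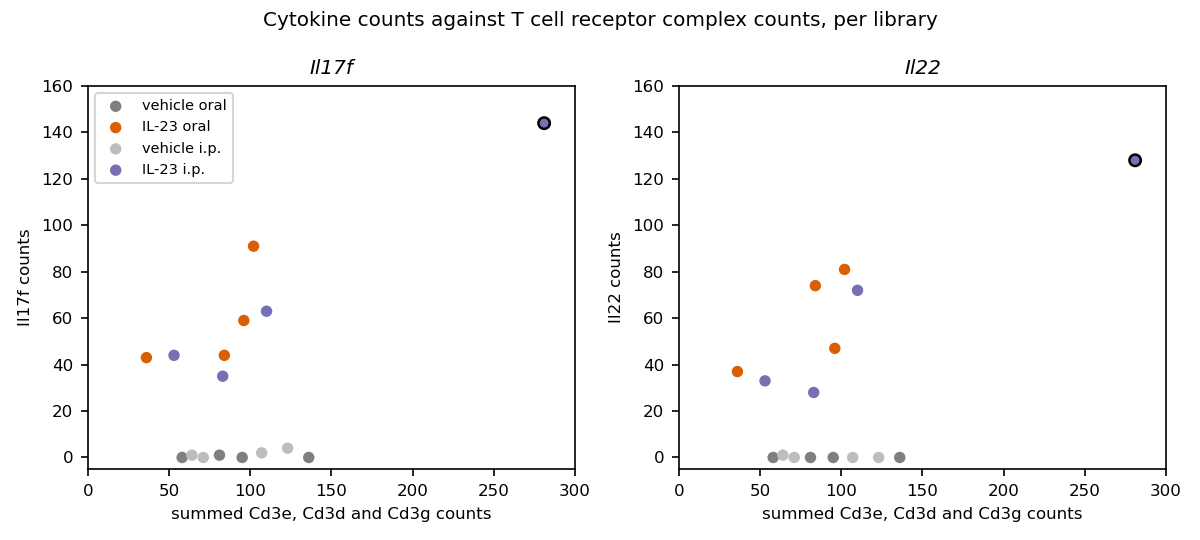
Counts of Il17f and Il22 (vertical) against summed Cd3e, Cd3d and Cd3g counts (horizontal) in each of the 16 libraries, with library 28 outlined. Vehicle libraries, with 58 to 136 Cd3 counts, lie along the bottom. The IL-23 libraries, with 36 to 110 Cd3 counts and 281 in library 28, lie above them.

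Other genes of the pathway were taken from 4 lists of 35 genes. In the oral route 15 rose, 9 fell and 11 did not pass, and in the intraperitoneal route 18 rose, 9 fell and 8 did not pass. That is 68.6% and 77.1% called, against 63.3% and 61.7% of genes past the filter and 44.5% and 44.1% of all genes with a count. The oral share thus lay near the background of genes past the filter. Only 3 of the 10 further cytokine genes below passed the filter, so neither background matches the whole set. Called higher were 29.2% and 30.8% of genes past the filter, and 21.5% and 22.6% of all genes with a count. Of 8 receptor genes for IL-12, IL-17 and IL-22, 6 rose in the oral and 5 in the intraperitoneal route, and 1 fell in each. The IL-17 receptor subunit gene Il17rc went up in the oral route from 107 ± 12 to 232 ± 26.6 CPM, and in the intraperitoneal route from 115 ± 16.3 to 222 ± 39.4 CPM (SD, n = 4 each). Il22ra2, whose product is a soluble inhibitor of IL-22, rose from 14.4 ± 1.13 to 30.2 ± 7.18 CPM (oral) and from 17.2 ± 1.68 to 30.2 ± 3.12 CPM (intraperitoneal). Il17rb, a receptor subunit for IL-25, fell from 9.64 ± 2.09 to 3.32 ± 0.49 CPM and from 11 ± 0.888 to 3.09 ± 1.47 CPM.

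Among the 11 kinases and transcription factors of type 17 cells, 3 rose and 5 fell in the oral route, and 4 rose and 6 fell in the intraperitoneal route. Stat4 (log2 fold change 2.63 ± 0.51 oral and 2.82 ± 0.54 intraperitoneal), Batf (1.71 ± 0.49 and 2.39 ± 0.50, the latter 1.71 without library 28) and Stat3 (1.3 ± 0.09 and 1.41 ± 0.09) rose.

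Of 10 further cytokine genes, 3 rose and 1 fell in the oral route, and 5 rose and 1 fell in the intraperitoneal route. The number that rose was 1 without IL-23 oral library 26, and to 2 in the intraperitoneal route without library 28, vehicle library 49 or vehicle library 59. Csf2, encoding the type 17 product GM-CSF, rose in both routes, from 6 to 38 summed counts (oral) and from 3 to 65 (intraperitoneal). Ifng, the type 1 cytokine gene, went from 0 to 13 summed counts in the oral route (edgeR adjusted p = 0.0564, or 0.00579 in the fit without library 28) and from 2 to 30 in the intraperitoneal route (edgeR adjusted p = 0.0294), where without library 28 its log2 fold change was 0.11 (edgeR adjusted p = 0.996). Il21, a cytokine of helper T cells, had 0 vehicle counts and 1 and 5 counts in the oral and intraperitoneal IL-23 groups (edgeR adjusted p = 0.331 and 0.0335), and was not called without library 28 (edgeR adjusted p = 0.127). Il17d, an IL-17 family gene, fell from 7.37 ± 0.757 to 4.4 ± 0.459 CPM and from 6.27 ± 1.06 to 4.02 ± 1.12 CPM (SD, n = 4 each). Of 6 genes for cytokines that induce type 17 cells, 3 rose and 2 fell in the oral and 4 rose and 1 fell in the intraperitoneal route, and 2 fell there without library 28, the second being Il7, a survival factor of lymphocytes. Il6 rose from 9 to 86 summed counts (oral) and from 1 to 99 (intraperitoneal), and Il1b from 25.9 ± 14.6 to 239 ± 133 CPM and from 10 ± 8.09 to 157 ± 66.9 CPM. Il1a rose by 2.44 ± 0.24 and 1.7 ± 0.23 in log2. Tgfb3 fell, with log2 fold changes of -1.03 ± 0.08 and -1.18 ± 0.09.

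Of 15 T cell markers 6 rose in the oral and 10 in the intraperitoneal route, and 0 fell, against 29.2% and 30.8% of genes past the filter called higher. The oral count was 2 without IL-23 oral library 68 and 4 without library 24, where 1 fell. The intraperitoneal count was 3 without library 28, where 1 fell, Cd28 (log2 fold change -1.18, edgeR adjusted p = 0.00672). In the same fit Cd247 fell in the oral route (-0.74, edgeR adjusted p = 0.0338). With all libraries neither passed, with oral and intraperitoneal values of -0.59 ± 0.38 and -0.61 ± 0.37 for Cd28 and of -0.78 ± 0.35 and -0.09 ± 0.33 for Cd247. Called genes were ranked by their log2 fold change averaged over the routes, which put Cd8a, Cd2 and Lck first. Cd8a, of cytotoxic T cells, rose in the oral route (2.98 ± 0.97), from only 2 to 14 summed counts. Its intraperitoneal value of 1.79 ± 0.87, from 5 to 12 summed counts, did not pass (edgeR adjusted p = 0.105). Cd2, an adhesion receptor gene, rose by 1.65 ± 0.55 (oral) and 1.39 ± 0.50 (intraperitoneal), the latter being 0.76 and not called without library 28 (edgeR adjusted p = 0.176). The kinase gene Lck rose by 1.19 ± 0.37 and 1.59 ± 0.35, the latter being 0.92 without library 28. Cd3e, which marks all T cells, had a log2 fold change of 0.2 ± 0.35 in the oral route (edgeR adjusted p = 0.629, n = 4 each) and of 1.03 ± 0.34 in the intraperitoneal route (edgeR adjusted p = 0.0138), which was 0.53 without library 28 (edgeR adjusted p = 0.112). Of 14 γδ T cell and innate lymphoid markers, 0 rose and 3 fell in the oral route. In the intraperitoneal route 5 rose and 3 fell. The background called lower was 34.0% and 30.9%. In the fit without library 28, 3 (oral) and 2 (intraperitoneal) rose. Zbtb16 (-1.94 ± 0.2 and -1.68 ± 0.2), Sox13 (-0.95 ± 0.17 and -0.6 ± 0.17) and Kit (-1.18 ± 0.16 and -1.25 ± 0.16) fell. The median log2 fold change of the 14 was 0.17 (oral) and 0.93 (intraperitoneal), so these falls do not stand for the list. Which cells of the bulk samples carried this RNA was not tested. Blk and 5830411N06Rik passed in the intraperitoneal route (2.25 ± 0.47 and 2.54 ± 0.47). They did not pass in the oral route (0.62 ± 0.49 and 0.87 ± 0.44, edgeR adjusted p = 0.282 and 0.098). The difference between routes was called for 0 of the 14.

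How the genes varied together was examined over the 8 IL-23 libraries, for 5 pairs on log2 CPM. Il17f and Il22 had r = 0.77 (exact permutation p = 0.0185, adjusted over the 5 pairs 0.0925) and rho = 0.62 (p = 0.115, adjusted 0.288), and r was 0.08 without the 2 libraries furthest from the median of Il17f, so the relation rests on those. Il17a and Il17f had r = 0.75 (exact permutation p = 0.0485, adjusted 0.121) and rho = 0.79 (p = 0.0279, adjusted 0.14), r = 0.73 without the 2 libraries furthest from the median of Il17a, and r = 0.25 without library 28. No pair passed after adjustment. The subunit pair Il23a and Il12b had r = 0.34 (exact permutation p = 0.417, adjusted 0.521) and rho = 0.43 (p = 0.299, adjusted 0.498), with r = 0.63 over the remaining 6 libraries. Il17f and Ccl20 had r = 0.09 and rho = 0.12 (exact permutation p = 0.855 and 0.793, adjusted 0.855 and 0.793), and r = -0.57 over the remaining 6. Il17f and Il23r had r = 0.57 and rho = 0.12 (exact permutation p = 0.149 and 0.793, adjusted 0.248 and 0.793), and r = -0.08 over the remaining 6.

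Genes of most similar pattern were ranked among the 14665 other genes past the filter by Pearson r over residuals from the route means, taking the smaller of r over 8 and over 7 IL-23 libraries (without library 28). These values are a description over few libraries and were not tested. For Ccl20 the 3 nearest were Strada (0.99 and 0.99), Trip10 (0.97 and 0.98) and Tnfaip3 (0.97 and 0.97), an NF-kB feedback gene. For Il17c they were Bcl6 (0.98 and 0.98), Krt24 (0.96 and 0.95) and 2010111I01Rik (0.95 and 0.95). For Il22 they were Csf2rb2 (0.99 and 0.98), Atad1 (0.98 and 0.96) and Rsl1d1 (0.96 and 0.98). For Il17f they were Mob1a (0.99 and 0.97), Ddx31 (0.96 and 0.98) and Slc25a30 (0.99 and 0.96), and for Il23a 1700096K18Rik (0.98 and 0.98), Abat (0.97 and 0.97) and Fbxo47 (0.98 and 0.97).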

How the data were processed

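Total RNA was sequenced from 16 mouse libraries (TruSeq Stranded Total RNA kit, per the labels' protocols). The authors deposited unnormalized read counts for each gene, whole numbers whose sums differ between libraries. The submitters' processing notes name FastQC, STAR 2.52, featureCounts (Subread 1.5.0) and GRCm38. Annotation release, strand setting and handling of multi-mapping reads: not given in the sources used here. Reads of near copies may be divided between them.

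Counts were fitted with edgeR 4.0.16 in R 4.3.3: TMM factors, filterByExpr with a minimum count of 10 (14671 genes), and quasi-likelihood models with 4 group means over all 16 libraries. Genes under the filter came from the same fit of all 20799 genes with a count. All p-values are 2-sided and were adjusted by Benjamini-Hochberg over every gene in the fit, with calls below 0.05. The SE was derived from the fold change and the F statistic, and the fit was tested on simulated data. Where a group held no count, a lower bound against 3 counts over the group is given. With 1 to 3 counts, a ratio with a 95% exact binomial interval is given. Positions are RefSeq's on GRCm38.p6. The 10 genes, the lists and the rule for named genes were chosen with earlier results of these data known, and the 4 motifs after the counts were seen. Every gene of the axis is named, with up to 3 called genes of the largest change in each other list described and any called against its direction. Alternatives were RLE factors, plain library size, no filter, a filter of 1 CPM in 4 libraries, DESeq2 1.42.0, limma-voom (limma 3.58.1), only the libraries of 1 route, and leaving out each library.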

Additional observations from a re-analysis of the deposited data

Results flagged for a closer look

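In 11 of 37 groups of 4 libraries with any spread, 1 library lay further from the rest, relative to the group's range, than Dixon's 95% critical value for 4 samples. Chance exceeds this value in about 1 in 20 groups of normally distributed values. That rate does not hold for counts near 0, where a single count in a group otherwise at 0 always exceeds it. The 11 can therefore not be set against 1 in 20. Library 28 was the high library in the IL-23 intraperitoneal group for Il17a (4.26 CPM against 0.486 to 0.828), Il17f (16.6 against 5.67 to 7.48) and Il12rb1 (6.22 against 0.663 to 1.19). For Ccl20 the high libraries were IL-23 intraperitoneal library 25 (96.5 CPM against 29.9 to 35.7) and vehicle intraperitoneal library 59 (13.6 against 2.81 to 3.5). IL-23 oral library 24 was high for Il17c (6.88 CPM against 1.91 to 2.15), and vehicle oral library 27 was low for Il12rb1 (0.365 CPM, 3 counts, against 0.709 to 0.733). The other 4 are single counts in groups otherwise at 0: Il17f in vehicle oral library 4 (0.0794 CPM), Il22 in vehicle intraperitoneal library 67 (0.1 CPM), and Il12b in vehicle oral library 33 (0.0666 CPM) and vehicle intraperitoneal library 50 (0.132 CPM).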

How the results depend on the processing

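The number of the 10 genes called was 7 in the oral route under every alternative run, and 9 in the intraperitoneal route under every alternative of scaling, filter, tool and samples except limma-voom (10). Over the fits that left out 1 library it was 7 in each oral fit, 8 to 10 in the intraperitoneal route, and 0 for the difference between routes. Plain library size shifted the median of all genes by -0.205 in log2 and changed no call of the 10 genes. Of the other pathway genes, 21 to 26 (oral) and 24 to 27 (intraperitoneal) were called when 1 library was left out. Among log2 fold changes, signs turned for 4 uncalled values: over the fits without 1 library, oral Il12rb1 ran from 0.0 (without IL-23 oral library 26) to 0.72, oral Ccr6 from -0.07 (without IL-23 oral library 24) to 1.21, the route difference of Il22 from -1.7 to 0.16 (without vehicle intraperitoneal library 67) and that of Il12b from -1.81 to 0.99 (without vehicle intraperitoneal library 50). Without library 28, r of Il17f and Il23r was -0.63, of Il17f and Il22 0.49, of Il17a and Il17f 0.25, of Il23a and Il12b 0.64 and of Il17f and Ccl20 0.36. With 1 instead of 0.5 added to each count, the oral Il22 difference relative to Cd3 counts was 6.11. Leaving out 1 library gave 6.89 to 7.31 for it, 5.79 to 6.63 for intraperitoneal Il22, 6.35 to 7.13 for oral Il17f and 4.4 to 5.19 for intraperitoneal Il17f. No paired analysis was possible because no replicate number is shared between groups. Il17a, Il12b, Il23r, Il12rb1 and Ccr6 rest on 0 to 12 counts in every library but library 28, which limits the size of change that could be resolved.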
